A study of Mus musculus with 14 samples.

Results

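The 8 genes Il1a, Il1b, Il1rn, Tnf, Il12a, Il23a, Ptgs2 and Osm, which encode classical inflammatory cytokines, 1 cytokine antagonist and 1 prostaglandin-forming enzyme, were followed across macrophages of the injured mouse brain and monocytes of mouse blood. Every non-control probe whose RefSeq accession maps to 1 of these 8 symbols was taken, which gave 12 probes for the 8 genes, out of 17174 named genes on the array. Il1a, Il1rn, Ptgs2 and Osm had 2 probes each, and the others 1. All 8 genes had a probe that passed the filter on low signal, Il23a only through 6 of the 14 arrays. Il12b, the subunit that IL-12 and IL-23 share, was not analysed here.

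The study set brain macrophages with and without arginase-1 expression after traumatic brain injury (TBI) against each other and beside blood monocytes. Male mice aged 12 to 16 weeks of the strain YARG, which carries a fluorescent reporter at the Arg1 locus, were used for all 4 groups. The groups were Arg1+ brain macrophages 1 day after controlled cortical impact (n = 4), Arg1- brain macrophages of the same day (n = 4), blood monocytes 1 day after the injury (n = 3) and blood monocytes of normal mice (n = 3). Controlled cortical impact is a piston strike on the exposed cortex. Brain macrophages of uninjured or sham-operated mice were not analysed here. Brain leukocytes were released by enzymatic digestion and a Percoll gradient, blood mononuclear cells by a ficoll gradient, so tissue and isolation cannot be told apart. All were sorted with antibodies to CD45, CD11b, Ly6G and F4/80. The labels do not say that replicates are separate animals, so p-values measure the spread between samples alone, and that spread may be technical.

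IL-1α and IL-1β bind the same receptor, IL-1R1, which signals through MyD88 to NF-κB, and IL-1β must be cut by caspase-1 before release. Il1rn encodes the antagonist that occupies IL-1R1 without a signal, and Il1r2 a decoy receptor. TNF acts on the receptors TNFR1 and TNFR2. Ptgs2, also called COX-2, makes prostaglandin H2, which other synthases turn into the single prostanoids. IL-12 is a pair of the chains encoded by Il12a and Il12b, and IL-23 a pair of those encoded by Il23a and Il12b. Oncostatin M is a cytokine of the IL-6 family. In macrophages most of these genes are induced early by microbial products and tissue damage.

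The sequences just before the start sites of Il1a, Il1b, Tnf and Ptgs2 are shown so that Il1b, the member called between the brain groups below, can be read beside 3 members that were higher in both brain groups than in blood. The 120 bases before the start are given 5′ to 3′ on the gene's own strand, from RefSeq on GRCm38.p6, with the letters of matched motifs in capitals.
Il1a, chr2:129309973-129310092, minus strand: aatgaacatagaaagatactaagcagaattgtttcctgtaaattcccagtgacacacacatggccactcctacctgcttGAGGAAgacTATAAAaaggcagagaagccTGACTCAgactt
Il1b, chr2:129371140-129371259, minus strand: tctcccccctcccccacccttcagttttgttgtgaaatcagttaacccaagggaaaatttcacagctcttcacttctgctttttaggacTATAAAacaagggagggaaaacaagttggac
Tnf, chr17:35202008-35202127, minus strand: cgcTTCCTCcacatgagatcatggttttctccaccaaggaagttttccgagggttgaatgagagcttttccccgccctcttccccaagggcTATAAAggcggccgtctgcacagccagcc
Ptgs2, chr1:150099911-150100030, plus strand: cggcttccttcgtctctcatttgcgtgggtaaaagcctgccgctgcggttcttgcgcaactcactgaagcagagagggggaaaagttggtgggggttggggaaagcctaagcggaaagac
A window of 250 bases before the start was searched for each of the 6 members matched by symbol (Il1a, Il1b, Il1rn, Tnf, Il12a and Ptgs2, 9 windows in all). The motifs were TATAAA on the gene's strand (TATA box), TGANTCA (AP-1), GAGGAA (core of PU.1 sites), TGACG (CRE half-site) and the NF-κB motif, all but the first on both strands, and no matches overlapped in the printed stretches. TATAAA stood 32 bases before the start of Il1a, 31 before that of Il1b and 29 before that of Tnf, and 7.59% of 32851 windows of all genes hold it. TGACTCA stood 12 bases before the start of Il1a and TGAGTCA 141 bases before the 5′-most start of Il1rn, against 6.75% of all windows with an AP-1 match. GAGGAA stood 41 bases before the Il1a start, on the opposite strand 117 bases before the Tnf start, and 247 bases before the Ptgs2 start, outside the stretch printed, against 23.3% of all windows. The NF-κB motif (7.25% of all windows) and TGACG (17.8%) had no match in the 9 windows. A match is a run of letters and no measured site, and a missing match says only that these letters are not in this window.

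A level below is the log2 of a probe's processed signal over the 75th percentile of its array, so 0 is a signal at that percentile and -4.32 the floor. A difference is a mean level minus another, with its standard error from a limma fit of all 14 arrays, and a gene was called at a Benjamini-Hochberg adjusted p under 0.05 over 21976 tested features. Levels of different genes are not set against each other. The 75th percentile of signal ran from 119 to 418 over the arrays and no spot was saturated. Arg1, the gene of the sorting reporter, had levels of 6.82, 6.20 and 6.21 on the 3 Arg1+ arrays with a usable spot, against 4.20, 3.94, 2.40 and 2.12 on the Arg1- arrays, a difference of 3.25 ± 0.43 (adjusted p = 0.000526). All labelled Arg1+ arrays with a value thus lay above all labelled Arg1- arrays. Of 10 tested monocyte and macrophage markers, 9 or 10 were well above background on every array.

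In Arg1+ brain macrophages against monocytes of post-TBI blood, 5 of the 8 members were called higher (Il1a, Il1rn, Tnf, Ptgs2 and Osm) and 0 lower, where 39.9% of all tested features were called, 19.9% higher and 20% lower. In Arg1- brain macrophages against post-TBI blood, 6 were called higher (the same 5 and Il1b) and 0 lower, where 33.4% of all features were called, 17% higher and 16.4% lower. Between Arg1+ and Arg1- brain macrophages, 1 member, Il1b, was called and was lower in Arg1+ cells, where 5.04% of features were called, 2.14% higher and 2.9% lower. In blood after TBI against normal blood, 0 members were called by limma (0 also at an unadjusted p under 0.05), where 0.15% of features were called, 0.109% higher and 0.041% lower. The arrays of the groups did not overlap for 6 members in Arg1+ brain against post-TBI blood (39.7% of all features), 7 in Arg1- brain against post-TBI blood (37%), 0 in Arg1+ against Arg1- brain (14.9%) and 1 in post-TBI against normal blood (9.26%). The 6 and 7 include Il23a, whose post-TBI arrays were all set to the floor, with some brain arrays not well above background. Ptgs2, near the floor in blood, is in these counts, in the calls against post-TBI blood and in the medians that follow. The median difference over the 8 members was 2.08 in Arg1+ brain against post-TBI blood, 2.13 in Arg1- brain against post-TBI blood, 0.06 in Arg1+ against Arg1- brain and 0.20 in post-TBI against normal blood. Over all tested features those medians were -0.03, -0.02, 0 and 0. The brain groups share the post-TBI blood arrays, so their differences from it are not independent.

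**Figure D1:**
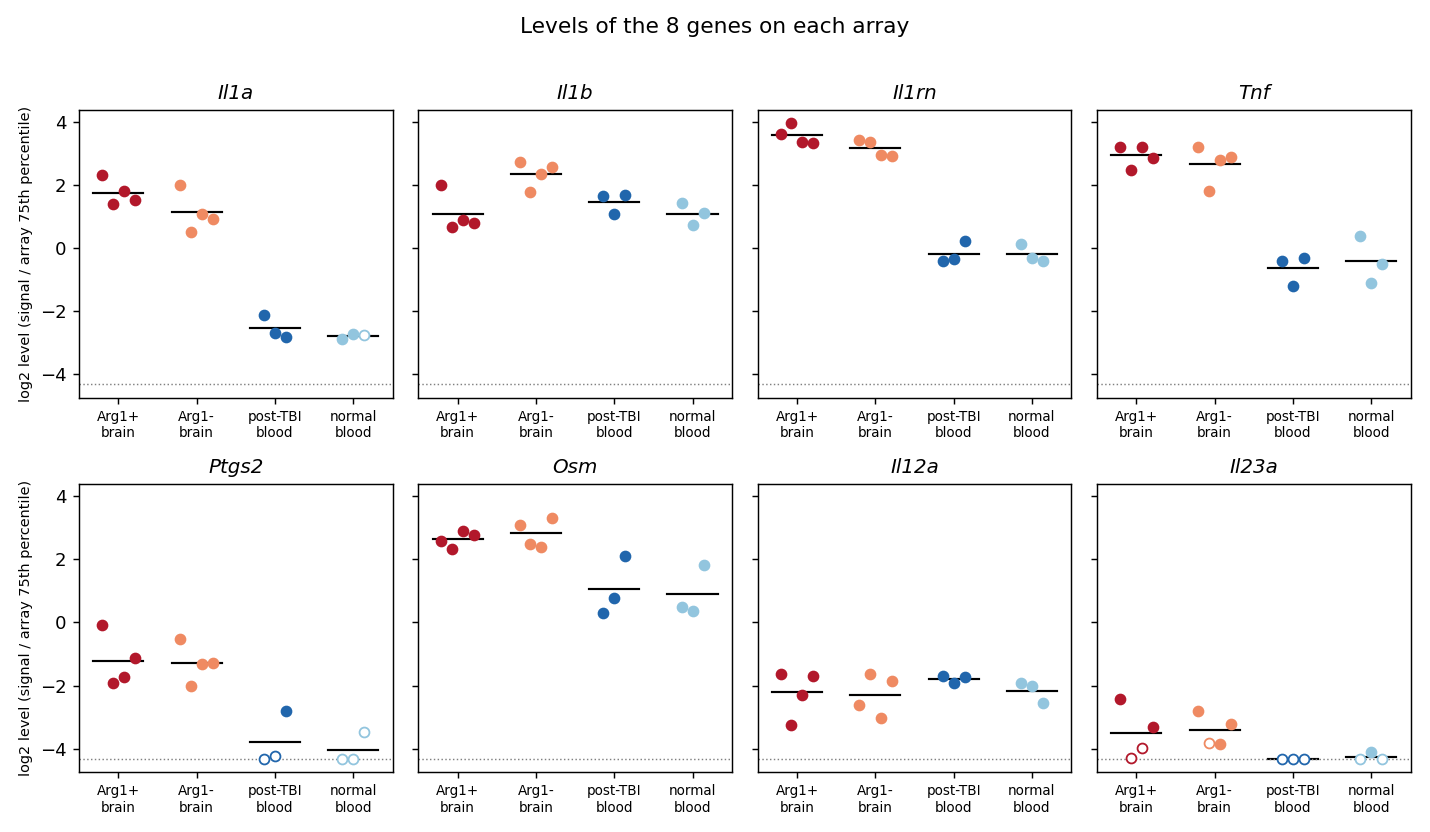
Log2 level (processed signal over the array's 75th percentile) of each of the 8 genes on every array, with group means as bars; open points are arrays not well above background and the dotted line is the floor of -4.32. Il1a, Il1rn and Tnf lie higher on all 8 brain arrays than on all 6 blood arrays, while Il1b is highest in Arg1- brain.

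Il1a, the precursor of IL-1α, was high in both brain groups and low in blood, where its signal was well above background on 3 of 3 post-TBI and 2 of 3 normal arrays. Its levels were 2.33, 1.40, 1.80 and 1.52 in Arg1+ brain replicates 1 to 4, and 2.00, 0.52, 1.09 and 0.93 in Arg1- brain replicates 1 to 4. They were -2.11, -2.70 and -2.82 in post-TBI blood replicates 1, 3 and 4, and -2.87, -2.71 and -2.74 in normal blood replicates 2, 3 and 4, the last of these not well above background. Every brain array lay above every blood array, and the Arg1+ and Arg1- arrays overlapped. The level was 19.8-fold higher in Arg1+ brain than in post-TBI blood (4.31 ± 0.31, adjusted p = 5.27e-08) and 12.8-fold higher in Arg1- brain than in post-TBI blood (3.68 ± 0.31, adjusted p = 5.28e-07). With normexp background correction these log2 differences were 2.79 and 2.24. Between Arg1+ and Arg1- brain the difference of 0.63 ± 0.29 missed the threshold (adjusted p = 0.277, 95% interval 0.01 to 1.25). A dimmer Il1a probe was at the floor on all 6 blood arrays. Its log2 differences from post-TBI blood, 3.49 in Arg1+ brain and 2.64 in Arg1- brain, depend on that floor. Between Arg1+ and Arg1- brain it differed by 0.84.

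Il1b, the precursor of IL-1β, had another order of groups: Arg1- brain highest, then post-TBI blood, then Arg1+ brain and normal blood. Its levels were 2.01, 0.67, 0.90 and 0.81 in Arg1+ brain, against 2.75, 1.79, 2.35 and 2.57 in Arg1- brain. In blood they were 1.65, 1.09 and 1.68 after TBI, against 1.43, 0.73 and 1.11 in normal mice. Of the Arg1+ arrays only replicate 1 reached into the range of the Arg1- arrays, so the brain groups overlapped by that array, and the Arg1- arrays lay above all blood arrays. The neighbouring groups post-TBI blood (1.47 ± 0.33, SD, n = 3), Arg1+ brain (1.10 ± 0.61, n = 4) and normal blood (1.09 ± 0.35, n = 3) were within each other's spread.

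Il1b was 2.41-fold lower in Arg1+ than in Arg1- brain macrophages (-1.27 ± 0.29, adjusted p = 0.0178, 95% interval -1.88 to -0.66). On each of the 4 slides the Arg1+ array was below the Arg1- array, by -0.56, -1.85, -0.99 and -1.68, and the fit with a slide block gave -1.27 (adjusted p = 0.0132). Leaving out Arg1+ replicate 2, 3 or 4, or Arg1- replicate 1, 3 or 4, ended the call (adjusted p 0.0515 to 0.0639), with differences of -1.27 to -1.13, while without Arg1+ replicate 1 the difference was -1.57 (adjusted p = 0.00227). Against post-TBI blood, Il1b in Arg1+ brain differed by -0.38 ± 0.31, short of the threshold (adjusted p = 0.375, 95% interval -1.04 to 0.28). Without Arg1+ replicate 1 that difference was -0.68 and was called (adjusted p = 0.0475). In Arg1- brain Il1b was 1.86-fold higher than in post-TBI blood (0.89 ± 0.31, adjusted p = 0.0377), a call that leaving out Arg1- replicate 1, 3 or 4 or post-TBI replicate 3 ended (adjusted p 0.0646 to 0.165).

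**Figure D2:**
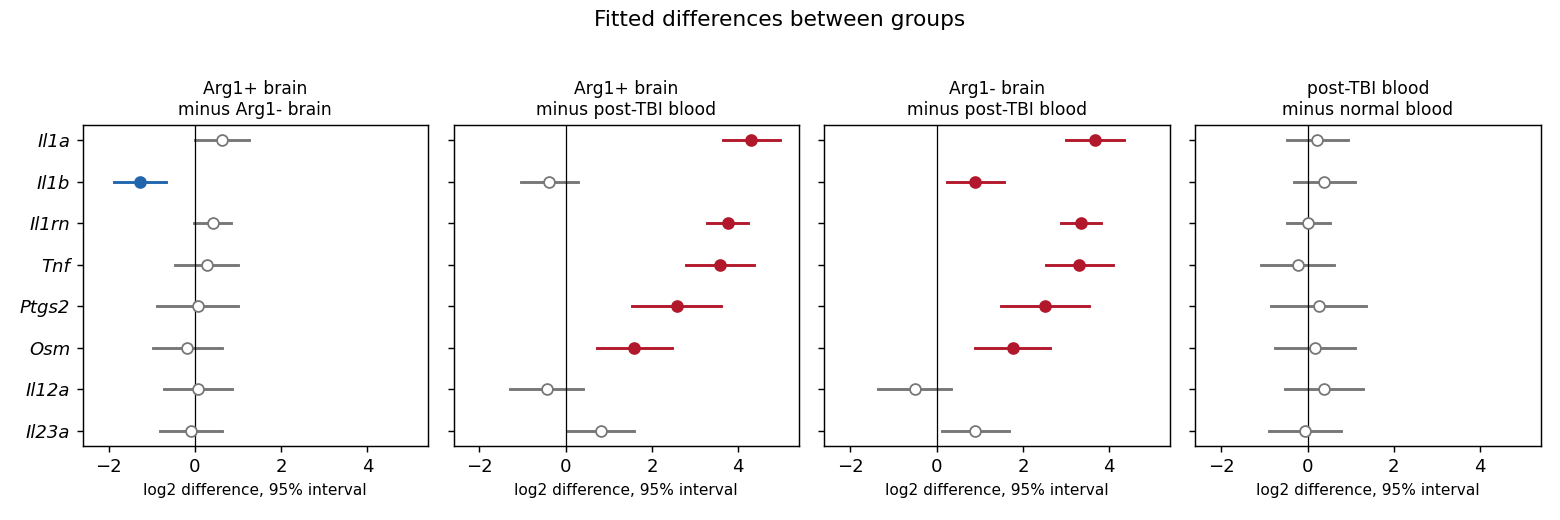
Log2 difference with its 95% interval for each of the 8 genes in each comparison, from the fit of all 14 arrays; filled points passed an adjusted p under 0.05 (red higher, blue lower). Of the Arg1+ minus Arg1- differences only that of Il1b (-1.27) is filled, and the brain minus blood differences of Il1a, Il1rn and Tnf are over 3; Ptgs2 and Il23a rest on blood values at or near the floor.

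Markers of neutrophils moved with Il1b between the brain groups. The summed linear level of 13 neutrophil markers was 13.6, 22.0, 16.5 and 10.9 in Arg1+ brain replicates 1 to 4, against 88.5, 146, 89.4 and 35.4 in Arg1- brain replicates 1 to 4 (S100a8 had no usable spot on Arg1- replicate 3). In blood it was 19.0, 26.4 and 101 after TBI, against 34.1, 33.3 and 6.82 in normal mice. The 6.82, of normal replicate 4, is a sum of 11 markers and cannot be set beside the others. Retnlg and Mmp9 had no usable spot there, and Retnlg had a mean log2 level of 4.39 on the other normal arrays. In post-TBI blood Retnlg reached 6.23, so the blood sums depend strongly on this 1 gene. Of the 13 markers, 8 were called lower and 1 higher in Arg1+ than in Arg1- brain, and 8 were called higher and 2 lower in Arg1- brain than in post-TBI blood. Within groups the arrays went both ways. Among the Arg1- arrays the highest neutrophil sum (replicate 2) went with the lowest Il1b level, 1.79, and that array was also the lowest for Il1a, Tnf and Ptgs2. Among the Arg1+ arrays replicate 1, the highest in Il1b at 2.01, had a neutrophil sum of 13.6. In post-TBI blood the highest sum (replicate 4) went with the highest Il1b level, 1.68. The 7 dendritic cell markers summed to 0.884 to 1.50 in Arg1+ brain, against 5.55 to 8.97 in Arg1- brain, and 6 of them were called lower in Arg1+ brain. Ly6G, a surface protein of neutrophils, and F4/80, one of macrophages, were among the sorting antibodies, and the gates drawn on them are not given in the sources used here. The part of these cells in the Il1b result was not tested. In sorted bulk samples, fewer cells of a type and less RNA per cell cannot be told apart.

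**Figure D3:**
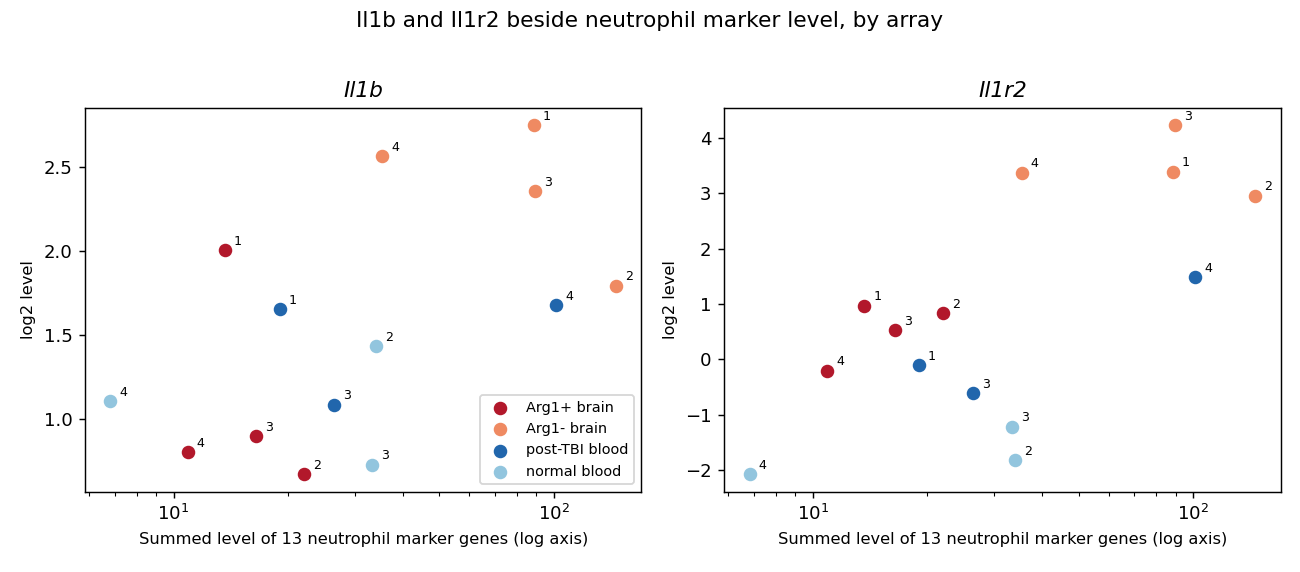
Log2 levels of Il1b (left) and of Il1r2, the IL-1 decoy receptor described below (right), on each array plotted against the summed linear level of 13 neutrophil markers (log axis), coloured by group and numbered by replicate. The Arg1+ arrays lie at sums of 10.9 to 22.0 and the Arg1- arrays at 35.4 to 146. Within Arg1- brain the array with the highest sum has the lowest Il1b and Il1r2, and within post-TBI blood it has the highest of both. The sum of normal blood replicate 4 lacks Retnlg and Mmp9, and that of Arg1- replicate 3 lacks S100a8.

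Il1rn, the receptor antagonist, was high on all brain arrays, with the smallest standard error among the members. Its levels were 3.61, 3.97, 3.37 and 3.35 in Arg1+ brain, 3.42, 3.38, 2.95 and 2.92 in Arg1- brain, -0.41, -0.35 and 0.23 in post-TBI blood, and 0.14, -0.30 and -0.41 in normal blood. The brain arrays lay above all blood arrays, and the brain groups overlapped. The level was 13.5-fold higher in Arg1+ brain than in post-TBI blood (3.75 ± 0.22, adjusted p = 4.44e-09) and 10.1-fold higher in Arg1- brain than in post-TBI blood (3.34 ± 0.22, adjusted p = 3.03e-08). Arg1+ exceeded Arg1- brain by 0.41 ± 0.20 in the mean, short of the threshold (adjusted p = 0.317, 95% interval -0.02 to 0.84). The other Il1rn probe gave 4.85, 4.44 and 0.41 for the same comparisons.

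Other genes of the IL-1 system changed in both directions between brain and blood. Of 18 tested, 2 were called higher and 7 lower in Arg1+ brain than in post-TBI blood, and 2 higher and 6 lower in Arg1- brain than in post-TBI blood, with median differences of -0.46 and -0.04. The 9 and 8 genes called stand beside the 39.9% and 33.4% of all features called in those comparisons, shares that also apply to the lists below. The inflammatory caspases Casp4 (-1.62 ± 0.22 in Arg1+ and -1.26 ± 0.22 in Arg1- brain) and Casp1, which cuts pro-IL-1β (-1.52 ± 0.21 and -1.33 ± 0.21), were lower in both brain groups than in post-TBI blood. Il18, a caspase-1 substrate, was also lower in both (-1.36 ± 0.35 in Arg1+ and -1.0 ± 0.35 in Arg1- brain, the second called in 21 of 28 alternative settings). So were Irak3, an inhibitor of the receptor's signal (-1.15 ± 0.28 and -1.19 ± 0.28), and the kinase gene Irak4 (-1.03 ± 0.31 and -1.23 ± 0.31, called in 24 and 27 of 28 settings).

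Il1r2, the decoy receptor for IL-1, was called in the Arg1 comparison together with Il1b and in the same direction. Its levels were 0.97, 0.83, 0.53 and -0.21 in Arg1+ brain, against 3.39, 2.96, 4.23 and 3.37 in Arg1- brain, without overlap. In blood they were -0.11, -0.61 and 1.48 after TBI, against -1.82, -1.21 and -2.07 in normal mice. The difference between Arg1+ and Arg1- brain was -2.96 ± 0.40 (adjusted p = 0.000507), and Arg1- brain exceeded post-TBI blood by 3.23 ± 0.44 (adjusted p = 4.49e-05). In post-TBI against normal blood the difference of 1.96 ± 0.47 missed the threshold (adjusted p = 0.179), although the arrays did not overlap. Neutrophils also express Il1r2, and the neutrophil sums above apply to it too. Il18rap, a chain of the IL-18 receptor, was the other IL-1 system gene called between the brain groups (-1.38 ± 0.37, adjusted p = 0.0419), in 14 of 28 alternative settings. Il1r1 had no tested probe, and the co-receptor gene Il1rap differed by 0.16 ± 0.27 between Arg1+ and Arg1- brain (adjusted p = 0.876).

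Tnf was higher in both brain groups than in blood. Its levels were 3.22, 2.50, 3.21 and 2.86 in Arg1+ brain, 3.20, 1.81, 2.79 and 2.88 in Arg1- brain, -0.39, -1.21 and -0.30 in post-TBI blood, and 0.40, -1.11 and -0.50 in normal blood. The lowest brain array, Arg1- replicate 2, lay above the highest blood array, and the brain groups overlapped over most of their range. Tnf was 12.0-fold higher in Arg1+ brain than in post-TBI blood (3.58 ± 0.37, adjusted p = 1.94e-06) and 9.89-fold higher in Arg1- brain than in post-TBI blood (3.31 ± 0.37, adjusted p = 7.04e-06). Arg1+ and Arg1- brain differed by 0.27 ± 0.34 (adjusted p = 0.799), with a 95% interval of -0.45 to 1.00.

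The TNF receptors went the other way from the ligand. Tnfrsf1b, which encodes TNFR2, was lower than in post-TBI blood in Arg1+ brain (-1.22 ± 0.15, adjusted p = 1.42e-05) and in Arg1- brain (-1.29 ± 0.15, adjusted p = 1.38e-05). Tnfrsf1a, which encodes TNFR1, was lower as well, by -0.61 ± 0.17 in Arg1+ (adjusted p = 0.00949) and -0.89 ± 0.17 in Arg1- brain (adjusted p = 0.000926). Of 12 tested genes of the TNF system, 4 were called higher and 5 lower in Arg1+ brain than in post-TBI blood, and 2 higher and 4 lower in Arg1- brain than in post-TBI blood. Ltb, a TNF family ligand of lymphoid tissue, had the largest difference in both (-3.65 ± 0.30 and -2.34 ± 0.30), followed by Birc3, a ubiquitin ligase of TNF receptor complexes (-2.07 ± 0.22 and -1.77 ± 0.22). Of 7 tested lymphocyte markers, 6 were called lower in Arg1+ brain and 5 in Arg1- brain than in post-TBI blood, and 0 higher. The part of lymphocytes in the Ltb difference was not tested. Litaf was higher than in post-TBI blood in both (1.30 ± 0.19 in Arg1+ and 0.85 ± 0.19 in Arg1- brain). Rhbdf2, whose product carries the TNF-shedding protease ADAM17 to the cell surface, was higher in both as well (0.95 ± 0.17 and 0.98 ± 0.17). Ltb was the 1 gene of the list called between Arg1+ and Arg1- brain (-1.31 ± 0.28, adjusted p = 0.0128), in 25 of 28 alternative settings.

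Ptgs2 was above background on all 8 brain arrays and on 1 of 6 blood arrays. Its levels were -0.09, -1.92, -1.74 and -1.13 in Arg1+ brain, -0.53, -2.0, -1.31 and -1.28 in Arg1- brain, -4.32, -4.25 and -2.80 in post-TBI blood, and -4.32, -4.32 and -3.48 in normal blood. All brain arrays lay above all blood arrays, the blood arrays nearest to them were both on the same slide, and replicate 1 was the highest array of each brain group. Ptgs2 passed the filter on low signal through the brain arrays, and 1 of 3 post-TBI arrays measured it above background while another was at the floor, so the folds that follow rest on blood values near the floor. The fitted level was 5.94-fold higher in Arg1+ brain than in post-TBI blood (2.57 ± 0.48, adjusted p = 0.000552) and 5.69-fold higher in Arg1- brain than in post-TBI blood (2.51 ± 0.48, adjusted p = 0.000919). Arg1+ and Arg1- brain differed by 0.06 ± 0.44 (adjusted p = 0.983), with a 95% interval of -0.89 to 1.01.

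The dimmer Ptgs2 probe was not well above background on any blood array, and was so on 2 of 4 Arg1+ and 3 of 4 Arg1- arrays. Its differences, which rest on values near the floor, were 1.06 for Arg1+ brain minus post-TBI blood (adjusted p = 0.0465) and 0.78 for Arg1- brain minus post-TBI blood. The second was not called (adjusted p = 0.152). The probes' sizes of change cannot be set against each other. For the brighter probe, normexp correction gave 1.09 and 1.00, and the authors' deposited log2 values 1.44 and 1.35, all called. The direction was upward in each of these.

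Listed genes of prostanoid synthesis and receptors beside Ptgs2 differed between brain and blood more often upward than downward in Arg1+ cells. The list also holds the leukotriene pathway genes Alox5 and Alox5ap. Of 15 tested genes, 8 were called higher and 3 lower in Arg1+ brain than in post-TBI blood, and 4 higher and 4 lower in Arg1- brain than in post-TBI blood, with median differences of 0.60 and 0.45. Ptgds and Hpgds, the synthases of prostaglandin D2, had the largest upward differences. Ptgds was at the floor, and not well above background, in post-TBI blood. Its fitted difference was 4.63 in Arg1+ brain (adjusted p = 5.28e-08) and 4.16 in Arg1- brain (adjusted p = 3.02e-07). Both sizes depend on that floor and are no lower bounds. Hpgds was higher by 3.49 ± 0.24 in Arg1+ and 3.35 ± 0.24 in Arg1- brain. Hpgd, which degrades prostaglandins, had differences of -3.17 ± 0.30 in Arg1+ and -2.85 ± 0.30 in Arg1- brain. These sizes moved with the processing: over 28 alternative settings, all called, the fitted difference in Arg1+ brain ran from 2.32 to 6.16 for Ptgds, 2.24 to 3.65 for Hpgds and -4.37 to -1.58 for Hpgd, and in Arg1- brain from 1.90 to 5.70, 2.19 to 3.51 and -3.68 to -1.53. The prostacyclin receptor gene Ptgir was lower as well (-1.42 ± 0.16 in Arg1+ and -1.64 ± 0.16 in Arg1- brain).

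Ptges, the inducible prostaglandin E2 synthase that acts after COX-2, was called in the Arg1 comparison although Ptgs2 was not. Its levels were 0.45, 0.89, 0.01 and -0.11 in Arg1+ brain, against -0.12, -1.12, -0.89 and -1.09 in Arg1- brain. The arrays did not overlap, although Arg1+ replicate 4 and Arg1- replicate 1 lay next to each other. The difference was 1.12 ± 0.28 (adjusted p = 0.0291), called in 20 of 28 alternative settings. Ptges was also higher than in post-TBI blood in Arg1+ brain (2.57 ± 0.30, adjusted p = 6.96e-06) and in Arg1- brain (1.45 ± 0.30, adjusted p = 0.00157). Ptger4, which encodes the prostaglandin E2 receptor EP4, went the other way between the brain groups. It stood at -0.38, -0.03, -0.28 and 0.16 in Arg1+ brain, against 0.64, 0.56, 1.34 and 0.96 in Arg1- brain, a difference of -1.01 ± 0.21 (adjusted p = 0.0112) without overlap.

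**Figure D4:**
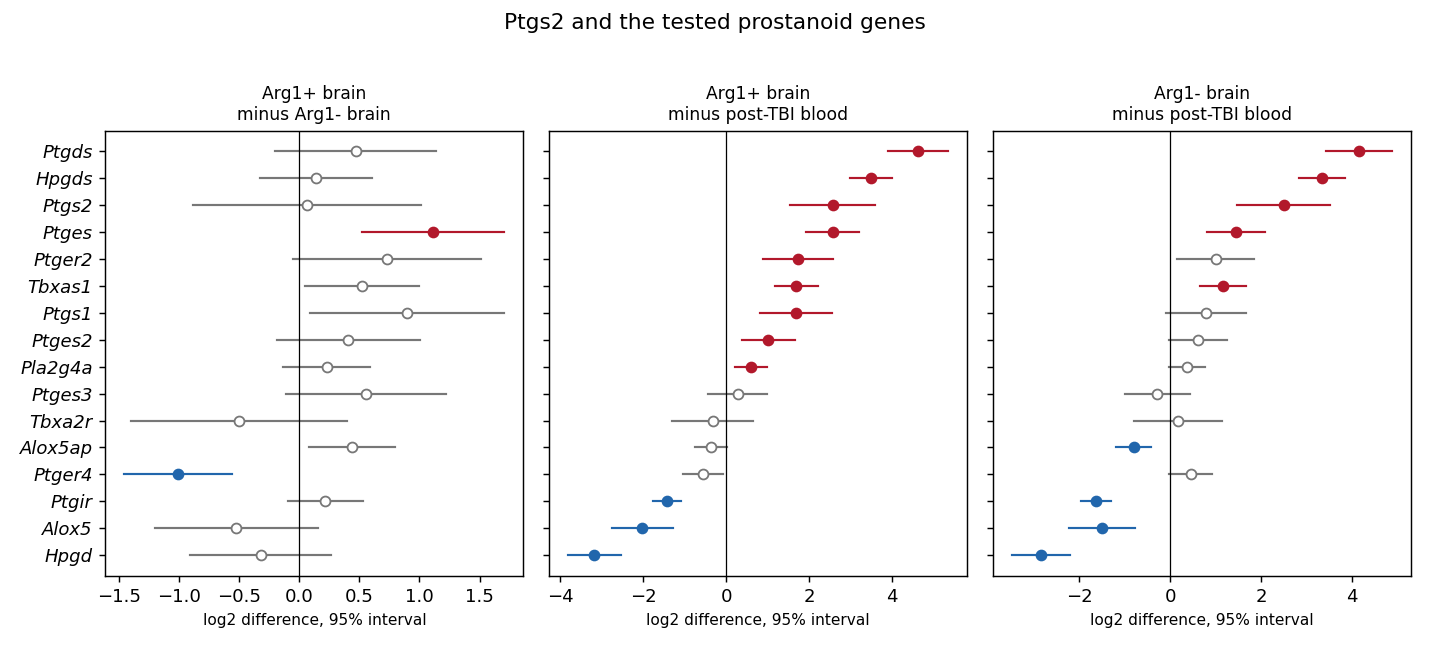
Log2 difference with its 95% interval for Ptgs2 and the 15 tested genes of the prostanoid list in 3 comparisons, whose x ranges differ. Filled points passed an adjusted p under 0.05 (red higher, blue lower). In Arg1+ minus Arg1- brain Ptges (1.12) and Ptger4 (-1.01) are filled and Ptgs2 is not, while in both brain minus blood panels Ptgds, Hpgds, Ptgs2 and Ptges are on the higher side and Hpgd on the lower.

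Osm, which encodes oncostatin M, was higher in both brain groups than in blood and had the widest spread in blood. Its levels were 2.59, 2.34, 2.89 and 2.78 in Arg1+ brain, 3.1, 2.47, 2.40 and 3.32 in Arg1- brain, 0.29, 0.78 and 2.12 in post-TBI blood, and 0.49, 0.37 and 1.81 in normal blood. The highest array of each blood group was on the same slide and came close to the lowest brain array. Osm was 3.00-fold higher in Arg1+ brain than in post-TBI blood (1.59 ± 0.41, adjusted p = 0.00578) and 3.39-fold higher in Arg1- brain than in post-TBI blood (1.76 ± 0.41, adjusted p = 0.00367). Without the 2 blood arrays of that slide, chosen after seeing the data, the differences were 2.11 and 2.29. Arg1+ and Arg1- brain differed by -0.17 ± 0.38 (adjusted p = 0.911, 95% interval -0.98 to 0.63). Of 8 tested genes of the oncostatin M and IL-6 family, 1 was called higher (Socs3, a feedback inhibitor of the receptor, 0.66 ± 0.24, called in 17 of 28 alternative settings) and 2 lower in Arg1+ brain than in post-TBI blood. These 2, the receptor genes Lifr (-2.0 ± 0.40) and Il6ra (-1.57 ± 0.23), were also the 2 called lower in Arg1- brain (-1.38 ± 0.40 and -1.56 ± 0.24), with 0 higher. The Lifr call in Arg1- brain held in 24 of 28 alternative settings. The receptor chain gene Osmr differed by 0.39 and its partner Il6st by 0.31 between Arg1+ and Arg1- brain, neither called.

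Il12a, which encodes the p35 chain of IL-12, was called in no comparison. Its levels were -1.64, -3.26, -2.29 and -1.69 in Arg1+ brain, -2.62, -1.63, -3.04 and -1.86 in Arg1- brain, -1.69, -1.92 and -1.74 in post-TBI blood, and -1.93, -2.01 and -2.55 in normal blood. The brain arrays spanned the whole range of the blood arrays. The difference was -0.44 ± 0.40 between Arg1+ brain and post-TBI blood (adjusted p = 0.428) and -0.51 ± 0.40 between Arg1- brain and post-TBI blood (adjusted p = 0.377). Between Arg1+ and Arg1- brain it was 0.07 ± 0.37 (adjusted p = 0.977), with a 95% interval of -0.72 to 0.85.

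Il23a, which encodes the p19 chain of IL-23, was at the limit of measurement. In brain, 2 of 4 Arg1+ arrays and 3 of 4 Arg1- arrays measured it well above background, against 0 of 3 post-TBI and 1 of 3 normal arrays in blood. Its levels were -2.43, -4.29, -3.98 and -3.33 in Arg1+ brain and -2.81, -3.83, -3.85 and -3.21 in Arg1- brain, with all post-TBI blood arrays at the floor and the normal blood arrays at -4.32, -4.12 and -4.32. The fitted level of Il23a was 1.76-fold higher in Arg1+ brain than in post-TBI blood (0.81 ± 0.36, adjusted p = 0.0913). In Arg1- brain it was 1.86-fold higher (0.90 ± 0.36, adjusted p = 0.0732). Neither passed the test, and with brain arrays not well above background these folds are no lower bounds. Both differences were called in the fit that held slide as a block (1.01 at an adjusted p = 0.0216 and 1.10 at an adjusted p = 0.0178) and with a lower floor of 0.01 of the percentile (1.81 and 1.89). They were smaller and not called with normexp correction (0.28 and 0.22) and with the authors' log2 values (0.43 and 0.41). Between Arg1+ and Arg1- brain the difference was -0.08 ± 0.34 (adjusted p = 0.964).

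Of 10 tested genes of the IL-12 and IL-23 system, 3 were called lower and 0 higher in Arg1+ than in Arg1- brain. They were Stat4, the transcription factor that carries the IL-12 signal (-2.55 ± 0.27, adjusted p = 8.28e-05, with -2.68 to -1.08 over the settings), Batf3, a transcription factor of dendritic cells (-1.31 ± 0.31, adjusted p = 0.0225, called in 19 of 28 alternative settings), and the kinase gene Jak2 (-1.02 ± 0.16, adjusted p = 0.00189). The dendritic and neutrophil marker sums given with Il1b differed in the same direction, and their part in these genes was not tested. In Arg1+ brain against post-TBI blood 5 genes were lower and 0 higher, with Ebi3, the chain that IL-27 and IL-35 share, at -3.04 ± 0.29 and Batf3 at -2.87 ± 0.33. In Arg1- brain against post-TBI blood 4 were lower (Ebi3 at -2.15 ± 0.29) and 1, Jak2, was higher (1.06 ± 0.18). The 7 dendritic cell markers summed to 4.02 to 5.35 in post-TBI blood, against 0.884 to 1.50 in Arg1+ and 5.55 to 8.97 in Arg1- brain. Against post-TBI blood 6 of them were called lower and 0 higher in Arg1+ brain, and 1 lower and 1 higher in Arg1- brain. Their part in these brain and blood differences was not tested. The shared receptor chain gene Il12rb1 was at or near the floor in both brain groups.

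Proteins that bind AU-rich elements set the lifetime of many cytokine mRNAs. Of 8 such genes tested, 0 were called between Arg1+ and Arg1- brain. Zfp36, which encodes tristetraprolin, an mRNA-destabilising protein that acts on the Tnf transcript, was lower than in post-TBI blood in Arg1+ brain (-1.12 ± 0.34, adjusted p = 0.0153) and in Arg1- brain (-1.43 ± 0.34, adjusted p = 0.00423). Zfp36 was called in 24 and 27 of 28 alternative settings, with differences of -1.46 to -0.65 in Arg1+ and -1.77 to -0.33 in Arg1- brain. Its relative Zfp36l1 was higher in Arg1+ (1.54 ± 0.23) and in Arg1- brain (0.83 ± 0.23), and Tia1, a translational repressor, was lower in both (-1.10 ± 0.26 and -1.23 ± 0.26). The list had 2 genes higher and 2 lower in Arg1+ brain, and 1 higher and 2 lower in Arg1- brain.

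Microglial markers differed between brain and blood beside the members. Of 11 tested, 9 were called higher and 1 lower in Arg1+ brain than in post-TBI blood, and 8 higher and 1 lower in Arg1- brain than in post-TBI blood. Their summed level was 57.6 to 89.7 in Arg1+ brain, 48.4 to 66.8 in Arg1- brain, 23.6 to 26.3 in post-TBI blood and 11.8 to 27.2 in normal blood. The 11.8, of normal replicate 3, is a sum of only 10 markers, and Arg1- replicate 3 also had 10 with a usable spot. Siglech and Slc2a5 were not well above background on any post-TBI blood array. Of 9 markers of neurons, astrocytes and endothelium, 7 were called higher in Arg1+ brain and 3 in Arg1- brain than in post-TBI blood. The part of these cells, and of the enzymatic digestion, in the members' brain and blood differences was not tested.

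Arrays of 1 slide shared deviations, and the brain and blood differences were therefore also taken within slides. On the 3 slides that held all 4 groups, the differences of Arg1+ brain from post-TBI blood ran from 3.63 to 5.03 for Il1a, 3.14 to 3.96 for Il1rn, 3.25 to 4.43 for Tnf, 1.05 to 4.16 for Ptgs2 and 0.76 to 2.49 for Osm. Those of Arg1- brain from post-TBI blood ran from 2.63 to 4.82 for Il1a, 3.18 to 3.78 for Il1rn, 2.21 to 4.09 for Tnf, 2.26 to 2.97 for Ptgs2 and 0.98 to 2.54 for Osm. Each of these within-slide differences was positive. For Il1b, Arg1- brain exceeded post-TBI blood by 0.14 to 1.48 on the 3 slides. With slide as a block the 5 genes were called higher in both comparisons, Osm for example at 1.71 and 1.88.

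Within the brain groups the members tended to be highest on the same replicate. Replicate 1 was the highest Arg1+ array for 6 of 8 members and the highest Arg1- array for 6 of 8, and in both groups for 5 (Il1a, Il1b, Tnf, Il23a and Ptgs2). Over all 21552 features measured on every brain array, replicate 1 was highest in 28.3%, 24.5% and 9.14%. Replicate 2 was the lowest Arg1- array for 4 of 8 members, against 24.3% of all features. The replicate 1 arrays of the 2 brain groups were on different slides, and over all features their deviations from the group means correlated at r = -0.055, a description across features. Arg1+ replicate 1 had the lowest 75th percentile of signal of all arrays (119), and Arg1- replicate 1 stood at 233. The part of array brightness in these deviations was not tested. The members were not independent of each other here, since they were read on the same arrays.

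**Figure D5:**
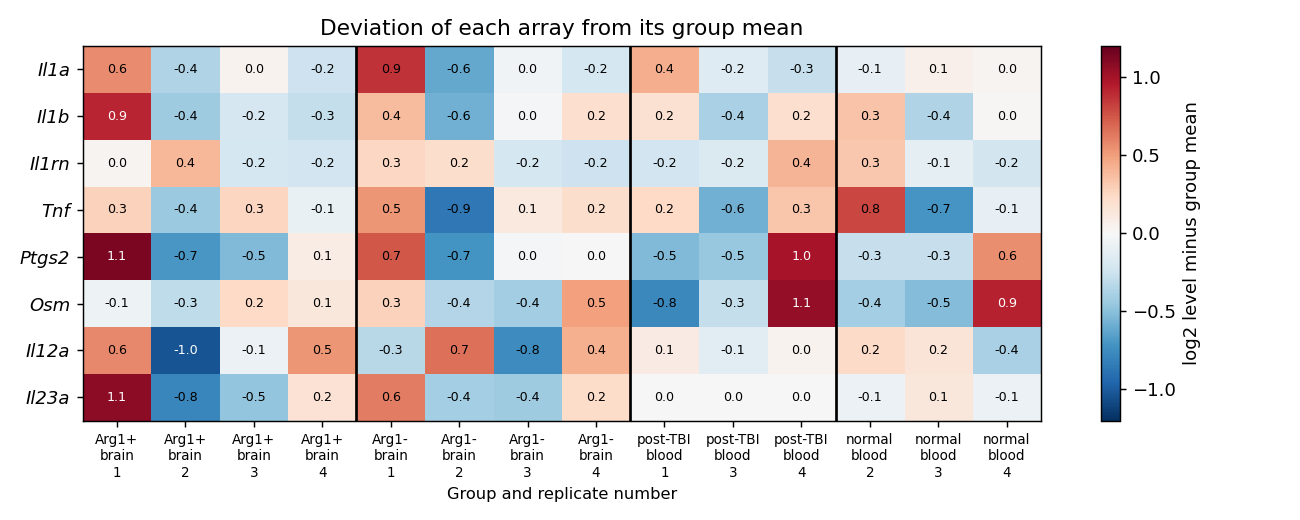
Deviation of each member's log2 level from its own group mean on the 14 arrays (colour and printed values in log2 units), in columns by group and replicate. The replicate 1 columns of both brain groups are above the group mean for most members, with Ptgs2 and Il23a over 1 in Arg1+ brain.

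In blood monocytes after TBI against normal blood monocytes, 0 of the 8 genes passed the test. The differences were 0.38 ± 0.33 for Il1b (adjusted p = 0.987) and 0.38 ± 0.43 for Il12a, 0.23 ± 0.34 for Il1a, 0.17 ± 0.43 for Osm, 0.01 ± 0.23 for Il1rn and -0.23 ± 0.39 for Tnf, the last 5 with an adjusted p of 1. Ptgs2 was not well above background on any normal array, nor Il23a on any post-TBI array. Their differences here rest on values at or near the floor, and neither was called (adjusted p of 1 each). The 95% intervals still held changes of up to 1.09 for Il1b and 1.29 for Il12a. Il12a was the 1 member whose arrays did not overlap here, where 9.26% of all features did not. Its margin was narrow, with the lowest post-TBI array at -1.92 and the highest normal array at -1.93. Of the 6 lists of related genes, 0 genes were called in this comparison.

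The genes whose centred levels over the 14 arrays lay nearest to a member, by root mean square distance in log2 units among 12459 genes, included no other member. They were Pla1a (0.331) and Igf2bp2 (0.347) for Il1a, whose median distance to all genes was 2.09. Those nearest to Il1b were Hic1 (0.358) and Cnnm2 (0.376), where the median was 0.836. Il1rn had Bhlhe41 (0.264) and Ltbp3 (0.292), and Tnf had Rab20 (0.330) and Phlda1 (0.349). Nearest to Ptgs2 were Tnfsf9 (0.455) and Peak1 (0.469), and to Osm Plk3 (0.333) and Eid3 (0.358). For the dim genes Il12a (Ankrd35 0.107, Phf21b 0.122) and Il23a (Shc4 0.185, Prss27 0.242) the median distances were 0.670 and 0.732. The distance is a description of these arrays, which share slides and groups.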

How the data were processed

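Amplified RNA of 14 samples was hybridised to 1-colour (Cy3) Agilent mouse arrays. Each deposited scanner file is Feature Extraction 10.7.3.1 output, per the file headers. It gives a processed intensity (background subtracted, then detrended, with no scaling between arrays), spot and background intensities, and other deposited values, which are flags of 0 or 1. The authors' log2 values, in a further table, follow the ranks of the median spot signal with nearly equal distributions on all arrays. The submitters' processing notes name limma without a version or step.

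Processed signal was divided by each array's 75th percentile over non-control spots, raised to at least 0.05 and log2 transformed. Spots flagged as outliers were set to missing and spots of a probe averaged. Of 41174 probes, 464 were left out for under 2 usable arrays in some group, and 13098 because under 3 arrays had them well above background. Probes were named through RefSeq accessions (GRCm38.p6, names and promoter sequences only): 24836 matched, with 17174 symbols, and 16338 did not. The brightest of a gene's kept probes was used (4414 symbols had several). The array's own annotation is on mm9.

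One limma 3.58.1 fit in R 4.3.3 (lmFit, eBayes with trend, 10 residual degrees of freedom) held all 14 arrays. Adjusted p-values are two-sided Benjamini-Hochberg values over 21976 features per comparison. The fit was tested on simulated data. The number of arrays limits the precision. Where a group was at or near the floor, the size of its difference depends on that floor and is no lower bound.

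Named genes are the 8 members, called members of 6 pathway lists (at most 4 per list and comparison, by size), receptors or partner chains, and the 2 nearest genes of each member. Counts of markers come from cell type lists. The members and lists were chosen with earlier results of these data known. Deviations of same-numbered Arg1+ and Arg1- arrays correlated at -0.464 to 0.406, 2 of 4 over 0.1, and those of same-numbered blood arrays at 0.210 and 0.355. These pairs are too few to decide whether same-numbered samples are paired. Same-slide arrays deviated together in 18 of 19 pairs (over 0.1). Alternatives were quantile and normexp normalization, the authors' log2 values, other floors and filters, probe choice, slide and replicate blocks, only the groups compared, and leaving out arrays.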

Additional observations from a re-analysis of the deposited data

Results flagged for a closer look

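Of 16 sets of 4 brain arrays examined for a value far from the others, 1 stood out: Il1b on Arg1+ brain replicate 1, at a log2 level of 2.01, where the nearest other Arg1+ array was at 0.90. The gap took up 0.832 of the group's range, just over the 95% critical value of Dixon's test, and chance alone passes that limit in about 1 of 20 such groups. Of the 14 arrays it had the lowest 75th percentile of signal (119) and the smallest share of probes well above background (50.4%). Levels are divided by that percentile, and its part in the deviation was not tested. Without this array the difference of Arg1+ from Arg1- brain in Il1b was -1.57 instead of -1.27.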

How the results depend on the processing

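For every pairing of a member with a comparison, up to 28 alternatives were run. Of 892 values in all, 837 kept direction and side of the threshold. Of the others, 29 changed sign (uncalled differences only), 15 lost a call and 11 gained one. The calls of Il1a, Il1rn, Tnf and Osm against post-TBI blood held in every alternative run, and that of Ptgs2 in all but the dimmest probe in Arg1- brain. Besides left-out arrays, the Il1b call between Arg1+ and Arg1- brain was lost with no filter on dim probes (adjusted p = 0.0638) and with only these groups fitted (0.0625), which left 0 members called. The Il1b call of Arg1- brain against post-TBI blood was lost with no filter (adjusted p = 0.102) and without the blood arrays of slide 2 (0.0612, chosen after seeing the data). Leaving out 1 array at a time gave 0 to 1 members and 602 to 1790 features for Arg1+ against Arg1- brain, 5 to 6 and 7279 to 8679 for Arg1+ brain against post-TBI blood, 5 to 7 and 5858 to 7533 for Arg1- brain against post-TBI blood, and 0 and 2 to 60 for post-TBI against normal blood. Without the slide 2 blood arrays, 1892 features differed between Arg1+ and Arg1- brain. In post-TBI against normal blood 33 features were called, against 20 with normexp, 20 with the authors' log2 values, 21 with the dimmest probe, 19 without the slide 2 blood arrays, 2 with the replicate block and 0 with only these groups fitted.

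The labels do not say whether arrays of the same number are paired, so a fit with replicate number as a block was run beside the main one. With the replicate block 831, 8094, 6564 and 2 features were called in the 4 comparisons and 1, 6, 7 and 0 members, against 1108, 8770, 7335 and 33 features and 1, 5, 6 and 0 members without it. With slide as a block 1502, 9891, 8131 and 32 features were called.

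Signs turned only among uncalled differences, and their causes were not tested. For Arg1+ minus Arg1- brain, Il23a was 0.049 with quantile normalization, 0.062 with normexp and 0.022 with the authors' values. When 1 array was left out, Il23a ran from -0.44 to 0.18, Il12a from -0.19 to 0.41, Ptgs2 from -0.31 to 0.31 and Tnf from -0.012 to 0.45. For post-TBI minus normal blood, Il1rn was -0.019 with quantile normalization, -0.16 with the mean of its probes, -0.34 with the dimmest probe and -0.30 without the slide 2 blood arrays. There Il23a was 0.021 with normexp, and the replicate block gave -0.14 for Il1a and -0.13 for Ptgs2. Leaving out 1 array gave -0.19 to 0.18 for Il1rn, -0.24 to 0.53 for Ptgs2, -0.36 to 0.63 for Osm and -0.59 to 0.17 for Tnf. Of the pathway and marker genes called (29 in Arg1+ against Arg1- brain, 86 in Arg1+ brain and 72 in Arg1- brain against post-TBI blood), 10, 17 and 16 lost the call in some setting and 13, 45 and 32 moved by over 1.5 times, in the same order. Signal near background limits Il23a and, in blood, Ptgs2 and Il1a.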
